A study of Mus musculus with 12 samples.

Results

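The genes described are 32 immediate early, heat shock and endoplasmic reticulum (ER) stress genes, taken by symbol from a list. They are 32 of 32285 genes counted in single-cell RNA sequencing of mouse fetal gonads. The list holds 24 immediate early genes, 6 heat shock genes (Hspa1a, Hspa1b, Hspa8, Dnajb1, Hsph1 and Hspb1) and 2 ER stress genes (Hspa5 and Ddit3). Gonads were taken at E12, at 23 ± 3 tail somites per the labels, from 6 groups of 2 libraries each: XX WT, XY WT, XX -KTS KO, XY -KTS KO, XX +KTS KO and XY +KTS KO. WT is wild type. The -KTS KO and +KTS KO embryos lack the -KTS or the +KTS splice variant of Wt1, a transcription factor gene of the gonad, in every cell, so that an effect on somatic cells and an effect on their neighbours cannot be told apart. Gonads were dissociated with trypsin at warm temperature before capture in droplets. Per the study's sample list, some -KTS KO libraries pooled gonads of several embryos, and the embryo of XY +KTS KO replicate 1 was the most advanced by tail somites.

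Immediate early genes are transcribed within minutes of a signal, without new protein synthesis, through factors such as SRF and CREB that are already present. Many encode transcription factors (Fos and Jun, which form AP-1, and the Egr and Klf zinc fingers), and others encode proteins that shut the response off, such as the phosphatase Dusp1 and the mRNA decay factor Zfp36. Heat shock genes answer unfolded protein in the cytosol through heat shock factors, and Hspa5 and Ddit3 answer unfolded protein in the ER. Enzymatic dissociation of living tissue is well known for switching on immediate early genes in single-cell data. The labels give 1 dissociation protocol for all samples, and its part in differences between libraries was not tested.

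The 12 libraries held 108111924 to 147968666 UMIs (unique molecular identifiers, each standing for 1 captured RNA molecule). Of 103730 barcodes, 76975 were kept as cells, and 63258 of these were gonadal somatic cells (3102 to 7497 per library, with 53579240 to 97030852 UMIs per library). A further 7095 were germ cells (144 to 1273 per library), 2071 endothelial cells (48 to 392) and 266 immune cells (12 to 47). The classes were set from marker genes and from clusters made without the 32 genes. The labels of sex held in gonadal somatic cells: Xist lay between 541.5 and 755.6 CPM (counts per 1000000 UMIs) in the XX libraries and at or under 0.157 CPM in the XY libraries, and Ddx3y was at 0 in every XX library. Wt1 itself lay between 158.4 and 310.0 CPM in all 12 libraries, and 3'-end counts do not separate its splice variants, so it does not check the genotypes. No pair of libraries shared more than 32 cell barcodes.

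One library stood apart before any comparison. In gonadal somatic cells, XY +KTS KO replicate 1 had the highest level of the 12 libraries for 25.5% of all 17692 genes tested, and for 20 of the 32 genes described here, each an immediate early gene. Most counts and calls of XY +KTS KO are therefore given with and without it. This library also enters the estimate of spread of the other comparisons, of which only some are given both ways. XX -KTS KO replicate 2 differed in its cells, with 55.03% of kept cells in the gonadal somatic class (76.25% to 88.8% in the others), 22.6% germ cells and 17.4% unnamed cells. XY +KTS KO replicate 2 gave 516 of the 535 cells of clusters 26 and 33 of the gonadal somatic class, which were led by Hoxc10 and Alx1 and by Crabp1 and Foxd1. Without these clusters the same genes were called in every comparison of gonadal somatic cells. Values are levels in CPM of UMIs summed over the cells of 1 class in 1 library, in the order replicate 1 and replicate 2. A summed level cannot tell fewer cells of a type from less RNA per cell.

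The promoters below are shown because their genes carry the main results: Fos and Btg2, high in XY +KTS KO replicate 1, Zfp36, which was high with them, and the heat shock genes Hspa1a and Hspb1, which were not but which differed between genotypes or sexes. The sequences are the 250 bases before the RefSeq start of transcription on GRCm38.p6, from 5′ to 3′ on the strand of the gene. They lie at chr12:85473640-85473889 (+ strand) for Fos, chr1:134079156-134079405 (- strand) for Btg2, chr7:28379229-28379478 (- strand) for Zfp36, chr17:34972157-34972406 (- strand) for Hspa1a and chr5:135887669-135887918 (+ strand) for Hspb1. Capitals mark, in Fos, the core of the cyclic AMP response element (TGACG or CGTCA) and the TATA box (TATAAA). In Btg2 they mark the full cyclic AMP response element (TGACGTCA), in Zfp36 the CArG box, to which SRF binds, and in Hspa1a and Hspb1 a pair of inverted heat shock units (GAANNTTC or TTCNNGAA).
Fos: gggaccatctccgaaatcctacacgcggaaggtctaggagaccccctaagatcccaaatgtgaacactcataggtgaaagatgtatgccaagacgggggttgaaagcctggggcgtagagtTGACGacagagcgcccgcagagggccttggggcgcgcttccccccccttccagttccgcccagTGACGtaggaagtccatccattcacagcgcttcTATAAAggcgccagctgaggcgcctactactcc
Btg2: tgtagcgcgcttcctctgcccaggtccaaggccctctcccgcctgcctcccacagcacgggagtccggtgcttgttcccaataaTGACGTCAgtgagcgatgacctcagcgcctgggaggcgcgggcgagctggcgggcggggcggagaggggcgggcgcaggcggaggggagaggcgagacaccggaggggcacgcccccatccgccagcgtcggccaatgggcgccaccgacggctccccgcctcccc
Zfp36: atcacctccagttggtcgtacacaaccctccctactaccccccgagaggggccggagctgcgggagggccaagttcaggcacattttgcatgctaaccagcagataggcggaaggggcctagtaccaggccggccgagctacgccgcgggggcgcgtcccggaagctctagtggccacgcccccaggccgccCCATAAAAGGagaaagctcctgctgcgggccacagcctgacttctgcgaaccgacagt
Hspa1a: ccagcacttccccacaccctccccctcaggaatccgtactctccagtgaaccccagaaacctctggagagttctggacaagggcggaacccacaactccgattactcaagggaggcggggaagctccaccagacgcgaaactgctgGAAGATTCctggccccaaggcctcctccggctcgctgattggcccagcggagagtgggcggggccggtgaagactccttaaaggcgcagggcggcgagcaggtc
Hspb1: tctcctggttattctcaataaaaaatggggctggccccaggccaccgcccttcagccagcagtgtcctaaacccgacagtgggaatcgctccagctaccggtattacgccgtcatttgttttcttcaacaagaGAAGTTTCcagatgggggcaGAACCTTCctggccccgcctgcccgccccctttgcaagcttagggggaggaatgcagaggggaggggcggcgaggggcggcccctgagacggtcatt

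Of the 32 genes, 27 had a promoter entry, and they had 33 entries in all, 5 of them of Egr2 and 2 each of Dnajb1 and Hsph1. A gene counts below where any of its entries holds the motif, beside the same share over all 27025 genes of the table. Egr1, Egr3, Ier2, Klf10 and Hspa8 had none. Both strands were searched in the 250 bases, and a full element also counts as holding the core. The core of the cyclic AMP response element was found in 14 of 27 genes and in 19.8% of all genes (17.8% of all 32851 entries). The full element was found in Btg2 and Dusp1 (1.77% of all genes), and the CArG box in Zfp36 and in 4 of the 5 entries of Egr2 (1.62% of all genes). The heat shock pair was found in 7 of 27 genes, namely Hspa1a, Hspa1b, Hspb1, Hsph1, Jun, Fosl2 and Egr2 (1 of its 5 entries), and in 14.5% of all genes (12.8% of all entries). The ER stress response element was found in Hspa5 alone of the 27, and in 0.13% of all genes. In Hspa1a the heat shock pair began 104 bases before the start, in Hspb1 the pairs began 117 and 97 bases before it, and in Fos the cores began 129 and 66 bases before it. The promoters of Hspa1a and Hspa1b were identical at 247 of 250 bases. These 2 genes are near-identical copies, so the split of reads between them is uncertain.

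The cell classes differed in these genes in every library. Klf2, a zinc finger known for its role in the vessel wall, was higher in germ, endothelial and immune cells than in gonadal somatic cells in 12 of 12 libraries, with a mean of 196.7 ± 47.7 CPM (SD, n = 12) in germ cells and 319.4 ± 126.9 CPM in endothelial cells against 14.7 ± 11.1 CPM in gonadal somatic cells. Fos showed another order. Its mean was 512.0 ± 170.5 CPM in immune cells, 135.5 ± 157.6 CPM in gonadal somatic cells (90.5 CPM without XY +KTS KO replicate 1), 13.0 ± 13.0 CPM in endothelial cells and 6.09 ± 3.78 CPM in germ cells. Fos was higher in immune than in gonadal somatic cells in 12 of 12 libraries, and lower in endothelial and in germ cells in 12 of 12.

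Of the 32 genes, 6 were higher in germ than in gonadal somatic cells in all 12 libraries (Klf2, Klf10, Gadd45b, Hspa8, Dnajb1 and Hsph1) and 20 were not higher in any. Over all 17692 genes tested these shares were 22.2% and 43.3%. The AP-1 genes Fos, Fosb, Fosl2, Jun, Junb and Jund and the 3 Egr genes were among the 20. Of the 6 heat shock genes, the constitutive chaperone Hspa8, Dnajb1 and Hsph1 stood on the other side. Hspa1a and Hspa1b were higher in germ cells in 0 of 12 libraries and Hspb1 in 1 of 12. Hspa8 had a mean of 2420 ± 190 CPM (SD, n = 12) in germ cells and 1484 ± 210 CPM in gonadal somatic cells, and Dnajb1, a co-chaperone of the Hsp70 proteins, had 84.7 ± 8.45 CPM and 43.2 ± 6.73 CPM. Endothelial cells had 6 genes higher than gonadal somatic cells in all 12 libraries and 10 higher in none (12.7% and 35.0% of all genes), and the 6 were Atf3, Klf2, Klf6, Klf10, Dusp1 and Hspa8. Immune cells had 11 higher in all and 2 higher in none, the 2 being Jund and Hspb1, from 266 cells in all (4.74% and 32% of all genes).

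In gonadal somatic cells the 24 immediate early genes summed to 4370 CPM in XY +KTS KO replicate 1 and to 1600 CPM in replicate 2. The other groups were XX WT (1224 and 1228 CPM), XY WT (1605 and 1314), XX -KTS KO (1481 and 1555), XY -KTS KO (1664 and 1700) and XX +KTS KO (1481 and 1908). The sum in XY +KTS KO replicate 1 was thus 2.81 times the median of the other 11 libraries, and no other library exceeded 1908 CPM. The sum of the 6 heat shock genes did not stand out there. They summed to 1554 and 1430 CPM in XY +KTS KO, which was 0.986 times the median of the others for replicate 1, with a range of 1303 to 2065 CPM over the other libraries. Most of that sum was the constitutive Hspa8 (mean 1484 CPM over the 12 libraries). It therefore says little of Hspa1a and Hspa1b (means 3.45 and 3.56 CPM). The ER stress genes summed to 416 and 420 CPM in XY +KTS KO, within the 344 to 662 CPM of the others. That sum was mostly Hspa5 (mean 452 CPM, against 13.6 CPM for Ddit3).

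**Figure D1:**
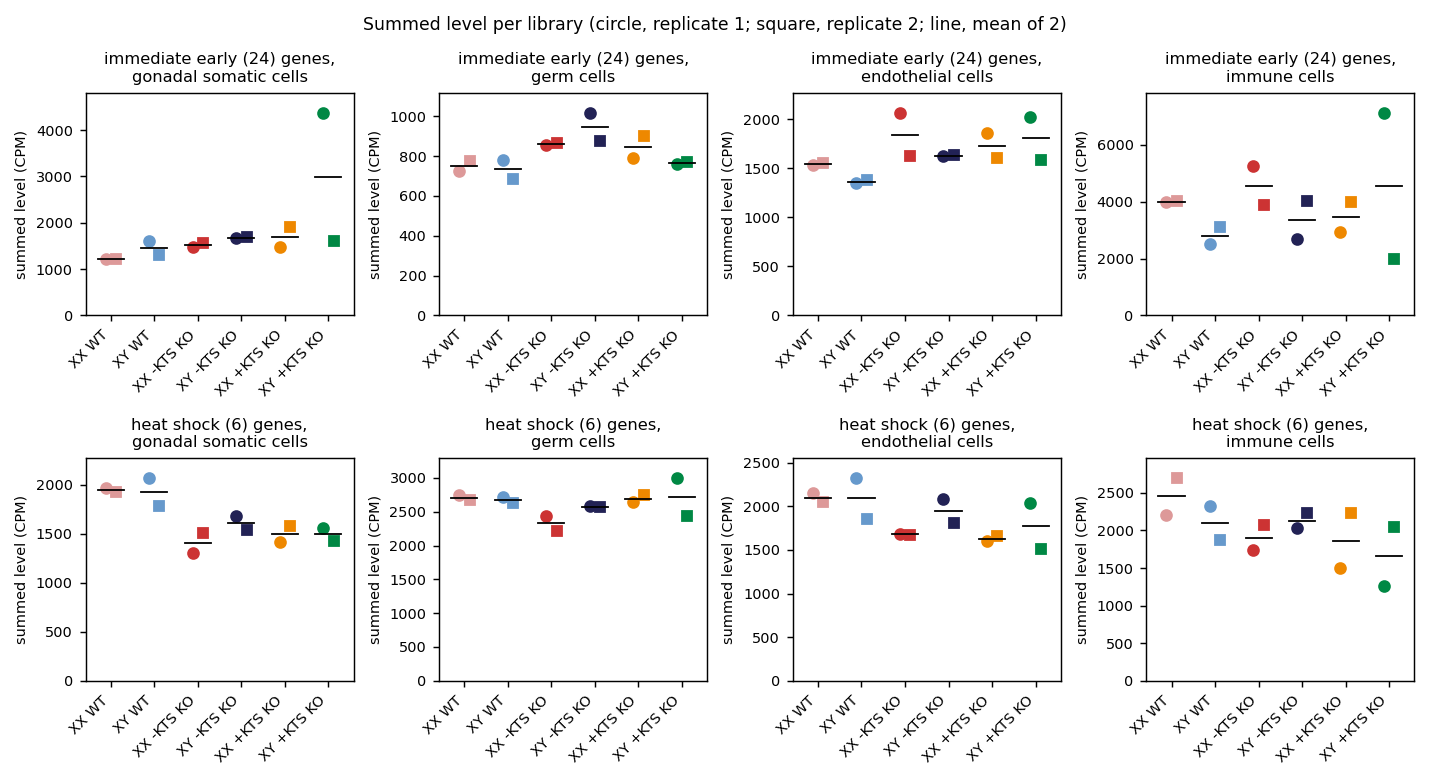
Summed level (CPM) of the 24 immediate early genes (top) and the 6 heat shock genes (bottom) in gonadal somatic, germ, endothelial and immune cells, by group, with a circle for replicate 1, a square for replicate 2 and a line for their mean. In gonadal somatic cells the immediate early sum of XY +KTS KO replicate 1 lies at 4370 CPM, above all others at 1224 to 1908 CPM. Its heat shock sum of 1554 CPM, mostly Hspa8, lies inside the range of the others.

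Among the AP-1 genes, Fos, the inducible partner of Jun, was at 630 CPM in XY +KTS KO replicate 1 and at 84.5 CPM in replicate 2. Fos levels elsewhere were 55.7 and 91.1 CPM (XX WT), 77.3 and 47.0 CPM (XY WT), 100.4 and 96.6 CPM (XX -KTS KO), 102 and 107 CPM (XY -KTS KO), and 92.3 and 142 CPM (XX +KTS KO). The highest WT library (91.1 CPM) lay next to the lower XX +KTS KO library (92.3 CPM), and XY +KTS KO replicate 2 lay inside the range of WT. XY +KTS KO replicate 1 lay at 6.83 times the median of the other 11 libraries. Junb, which also pairs with Fos proteins, was at 334 CPM in replicate 1 and between 17.4 and 78.4 CPM in the others, and Jun was at 534 CPM against 131 to 322 CPM. Fosb was at 115 CPM against 6.91 to 51.5 CPM, with a second high library, XX WT replicate 2, at 51.5 CPM. Atf3, a stress-induced factor of the ATF family, was at 30.1 CPM against 1.77 to 7.74 CPM. Jund, the member of the family that is present without a signal, was at 633 CPM and inside the range of the others (458 to 703 CPM).

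The Egr genes encode zinc finger factors that are transcribed soon after growth factor signals. Egr1 was at 302 CPM in XY +KTS KO replicate 1 and at 41.8 CPM in replicate 2, and the other 10 libraries lay between 27.1 and 63.5 CPM. Egr2 and Egr3 were low throughout, at 9.24 and 9.32 CPM in replicate 1 against at most 2.44 and 2.77 CPM elsewhere. The highest ratio to the median of the other libraries was that of Egr3 (14.7), which rested on a median of 0.632 CPM.

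Btg2, an antiproliferative gene induced by p53 and by growth factors, was the next by that ratio (14.4). It was at 671 and 94.6 CPM in XY +KTS KO and at 140 and 136 CPM in XX +KTS KO. In the other groups Btg2 lay at 46.5 and 33.4 CPM (XX WT), 92.5 and 70.9 CPM (XY WT), 37.6 and 32.5 CPM (XX -KTS KO), and 23.6 and 38.8 CPM (XY -KTS KO). The other genes of this kind stood out less in replicate 1 or not at all. Ier2 was at 503 CPM against 97.0 to 240 CPM, Ier3 at 31.0 CPM against 12.05 to 27.0 CPM, and Ier5 at 71.4 CPM, below the 72.5 CPM of replicate 2. Btg1, a relative of Btg2, was at 99.9 CPM and inside the range of the others.

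The Klf genes and Nr4a1, an orphan nuclear receptor, followed. Klf4 was at 50.5 CPM in replicate 1 against 3.94 to 13.1 CPM, Nr4a1 at 64.9 CPM against 2.55 to 20.1 CPM, and Klf2 at 43.6 CPM against 3.62 to 24.8 CPM. The genes that damp the response were high in the same library. Zfp36 was at 41.0 CPM against 5.24 to 11.7 CPM, Socs3, an inhibitor of cytokine signalling, at 38.5 CPM against 8.22 to 20.1 CPM, and Dusp1 at 51.9 CPM against 14.3 to 40.3 CPM. Gadd45b, a growth arrest gene, was the exception among them, at 33.4 CPM inside a range of 15.8 to 63.1 CPM. Dusp1 came nearest to replicate 1 in the XY -KTS KO libraries (40.3 and 39.1 CPM).

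Set against its own partner library, XY +KTS KO replicate 1 was past 2-fold higher for 18 of the 32 genes in gonadal somatic cells, all of them immediate early genes, and for 3.01% of all genes. Replicate 2 was past 2-fold higher for none of the 32 and for 0.678% of all genes. The median log2 ratio was 1.82 over the immediate early genes, 0.42 over the heat shock genes and 0.12 over all genes. By gene, the heat shock ratios were 0.69 (Hsph1), 0.55 (Dnajb1), 0.47 (Hspa1a), 0.36 (Hspb1), 0.32 (Hspa1b) and 0.07 (Hspa8). With 2 libraries there is no test of this difference. Socs3 (log2 ratio 1.22) and Ier2 (1.24) lay just past 2-fold, and Ier3 (0.92) and Klf10 (0.79) just short of it. In the other 5 groups at most 2 of the 32 genes passed 2-fold in either direction. Fosb and Klf4 were higher in XX WT replicate 2, as were 0.39% of all genes, and none of the 32 in replicate 1 (0.294%). Atf3 was higher in XY WT replicate 1 (0.486% of all genes) and none in replicate 2 (1.33%). Jun and Egr3 were higher in XX +KTS KO replicate 2 (0.548%) and none in replicate 1 (0.401%). In both -KTS KO groups no gene of the 32 passed it, with 0.35% and 0.396% of all genes in XX and 0.294% and 0.497% in XY.

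**Figure D2:**
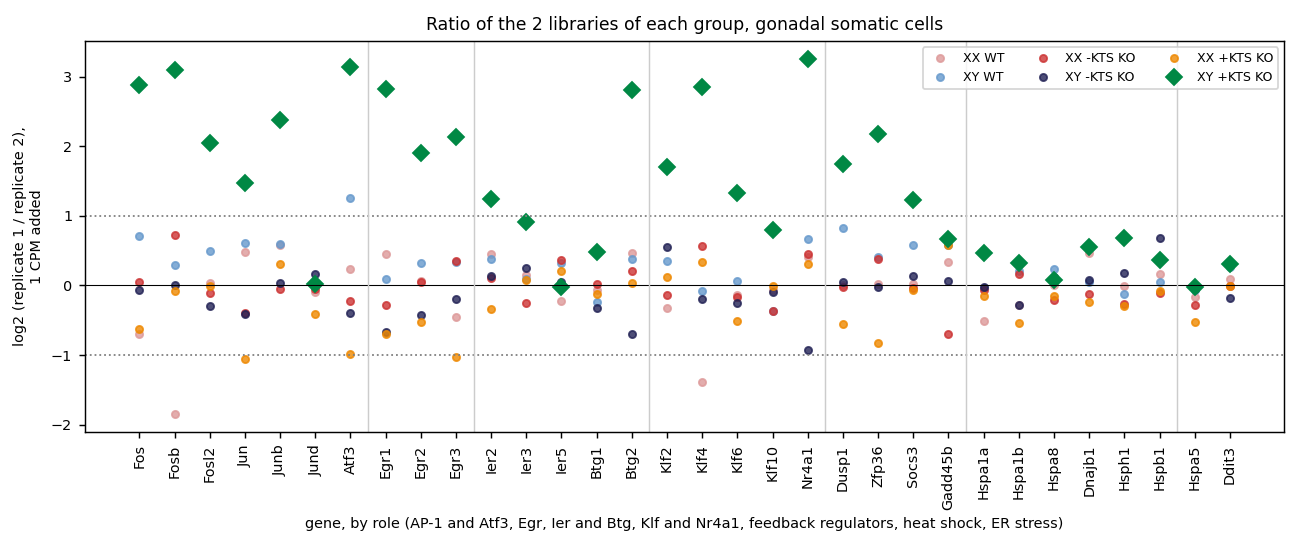
Log2 ratio of replicate 1 to replicate 2 in gonadal somatic cells (1 CPM added) for each of the 32 genes, ordered by role along the x axis, with 1 point for each of the 6 groups and dotted lines at 2-fold. The diamonds of XY +KTS KO lie past the upper line for 18 genes, and points of the other groups pass a line at most 2 times per group.

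The high level was spread over cells rather than held by a few. In XY +KTS KO replicate 1 the median gonadal somatic cell had 37.6 UMIs of the 24 genes per 10000 UMIs, with a 10th percentile of 13.4 and a 90th percentile of 80.7. Medians in the other 11 libraries lay between 9.48 and 14.9, so the 10th percentile of replicate 1 lay inside the range of the others' medians. For the heat shock genes, whose sum was mostly Hspa8, the median was 14.1, against 11.7 to 19.4 in the others. After each cell was thinned to 5000 UMIs, Fos was detected in 73.7% of gonadal somatic cells of replicate 1 (95% Wilson interval 72.47 to 74.96, for counting error only, 4789 cells, 1472 shallower cells left out), and in 14.1% to 27.4% in the other libraries. Without thinning, the share in replicate 1 was 80.7%. Btg2 was detected in 82.3% of thinned cells in replicate 1 against 9.13% to 36.9%, and Egr1 in 64.1% against 9.87% to 19.98%. The same measure gave 5.82% of 447 germ cells for Fos in this library and 17.2% of 29 red blood cells, a cell type in which Fos from other cells can be counted (2.15% to 8.33% in the red blood cells of the other libraries). In red blood cells of replicate 1, Btg2 was detected in 37.9% (7.81% to 25.3% in the others) and Egr1 in 6.9% (0% to 3.23%). Fos was at 11.5% of its somatic level there, Wt1 at 18.6%, Lhx9 at 15.0%, Gata4 at 25.4%, Tcf21 at 20.4% and Wnt6 at 9.92%. The medians over the other libraries were 8.58%, 3.60%, 3.54%, 3.33%, 5.72% and 2.46% in that order. The part of somatic RNA in these cells was not tested. The median gonadal somatic cell had 10091 UMIs in replicate 1 and between 9940 and 19358 in the others. The median mitochondrial share was 2.97%, inside the 1.86% to 3.34% of the others. The part of depth beyond the thinning, and of embryo stage, was not tested.

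**Figure D3:**
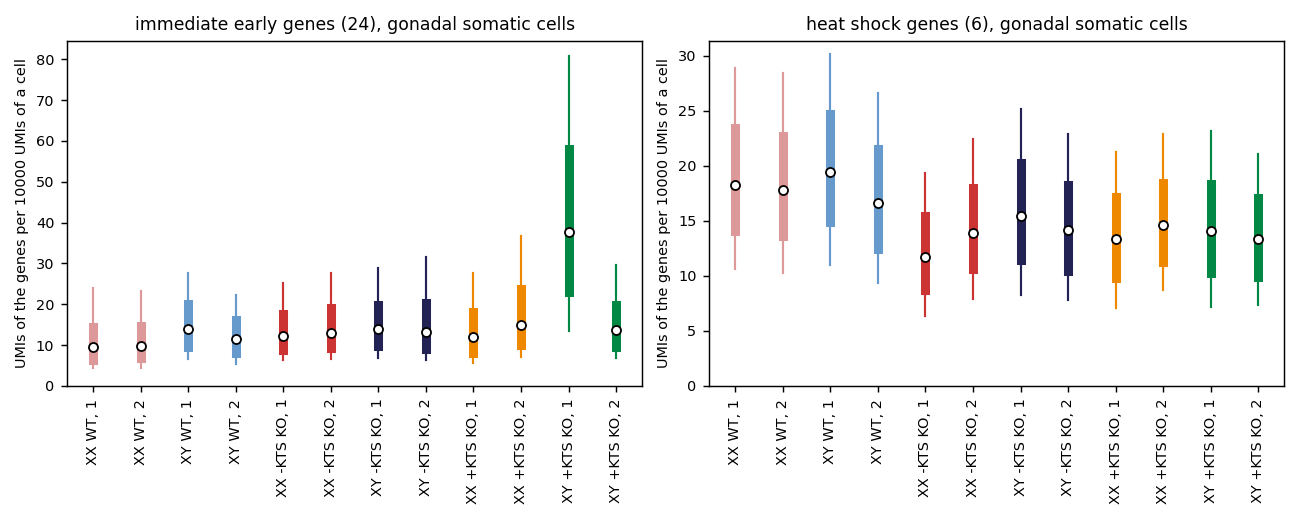
UMIs of the 24 immediate early genes (left) and of the 6 heat shock genes (right) per 10000 UMIs of each gonadal somatic cell, by library, with a circle at the median, a thick bar from the 25th to the 75th percentile and a thin line from the 10th to the 90th. XY +KTS KO replicate 1 has an immediate early median of 37.6 against 9.48 to 14.9 in the others, and a heat shock median of 14.1 inside the others' 11.7 to 19.4.

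The high level also held within the clusters that could be compared. Clusters 6 and 9 among them were led by genes of mitosis and by histone genes, and each may hold more than 1 type of cell. In 6 clusters of gonadal somatic cells that both XY +KTS KO libraries filled, the immediate early sum was 2.41 to 3.34 times higher in replicate 1 in 6 of 6, and the heat shock sum 1.03 to 1.198 times. The ratio of 3.34 was that of cluster 25, with 50 cells of replicate 1, and cluster 0 had 53. Across the 8 clusters with enough cells of replicate 1, the immediate early sum ran from 3440 to 5445 CPM, and in the 84 pairs of another library and a cluster it ran from 989.4 to 2901 CPM, with no overlap. Much of replicate 1 fell in clusters of its own, outside those 6, with 49.3% of its gonadal somatic cells in cluster 11 and 11.5% in cluster 23. It gave 97.7% of the 3158 cells of cluster 11 and 93.9% of the 765 cells of cluster 23. The 32 genes took no part in the clustering, but other immediate early genes were not left out. These clusters are therefore not independent of the high level. Btg2, Fos, Fosb and Klf4 were among the leading genes of cluster 11, beside Cst12, Pde10a and Gm2044. A cluster made mostly of 1 library may be that library rather than a type of cell.

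Germ cells of the same library had no high sum. Their immediate early sum was 759 CPM in XY +KTS KO replicate 1, between the 687 and 1016 CPM of the other libraries, and 769 CPM in replicate 2. Their sums were nevertheless the highest of the 12 libraries for the AP-1 genes with Atf3 (372 CPM against 243 to 359.9 CPM), the Egr genes (11.7 CPM against 1.02 to 4.94 CPM) and the heat shock genes (2994 CPM against 2216 to 2746 CPM). They were the lowest of the 12 for the Ier and Btg genes (122 CPM against 141 to 210 CPM) and the genes that damp the response (71.9 CPM against 82.0 to 128 CPM). The ER stress sum was the lowest as well (239 CPM against 249 to 316 CPM). In germ cells this library was the highest for 12 of the 32 genes and for 27.75% of all 13773 genes tested. Ier2 was at 52.2 CPM in germ cells of replicate 1, the lowest of the 12 libraries (75.9 to 118 CPM in the others). Past 2-fold higher in replicate 1 than in replicate 2 were 6 of 29 genes tested, against 6.93% of all genes. Fos was at 12.9 and 2.59 CPM and Egr1 at 10.95 and 1.65 CPM in germ cells of XY +KTS KO. Relative to gonadal somatic cells of replicate 1, germ cells held 2.04% of the Fos level, 3.62% of the Egr1 level, 2.93% of the Btg2 level and 3.80% of the Junb level. The share ran from 1.55% (Fosl2) to 293.7% (Klf10) over the 24 immediate early genes, with 8.63% for Klf4, 10.4% for Ier2 and 11.6% for Nr4a1. The shares of the somatic markers in these germ cells were 2.68% for Wt1, 2.47% for Lhx9, 3.52% for Gata4, 1.64% for Tcf21 and 2.05% for Wnt6. The median of the Wt1 share over the other libraries was 1.28%, and the part of somatic RNA in these germ cell values was not tested.

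Endothelial cells stood between. Past 2-fold higher in XY +KTS KO replicate 1 than in replicate 2 were 11 of 28 genes tested (10 immediate early genes and Hsph1, at 38.05 and 12.7 CPM), against 8.04% of all genes. In endothelial cells of XY -KTS KO 4 of the 28 genes were past 2-fold higher in replicate 1 (3.57% of all genes) and 5 in replicate 2 (4.55%). In XX -KTS KO 5 were past 2-fold higher in replicate 1 (3.43%), which had 48 such cells, and 0 in replicate 2 (4.03%). Fos was at 49.6 and 5.49 CPM in endothelial cells of the XY +KTS KO libraries, Egr1 at 37.6 and 3.73 CPM, and Btg2 at 101 and 38.6 CPM. For each of these 3 genes replicate 1 was the highest of the 12 libraries. The whole sum was not: it was 2025 CPM in replicate 1 and 1590 CPM in replicate 2, within 1349 to 2065 CPM over the others. Endothelial cells of replicate 1 held 7.87% of the somatic level of Fos, 12.4% of that of Egr1 and 15.0% of that of Btg2. Among somatic markers, Wt1 was at 6.48% of its somatic level there, Lhx9 at 8.72%, Gata4 at 3.31%, Tcf21 at 7.88% and Wnt6 at 4.65%. The medians of these markers over the other libraries were 4.53%, 2.77%, 2.03%, 2.43% and 2.07% in that order. The part of somatic RNA in the endothelial values was not tested. In immune cells the sum was 7111 CPM from 16 cells in replicate 1 and 1986 CPM from 47 cells in replicate 2, with 2507 to 5237 CPM in the other groups.

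In gonadal somatic cells of XX -KTS KO, 8 of the 32 genes differed from XX WT at an adjusted p under 0.05 (edgeR quasi-likelihood test, Benjamini-Hochberg over all genes tested), 3 higher and 5 lower. The same test called 16.3% of all 17692 genes (6.75% higher and 9.55% lower). In XY -KTS KO against XY WT, 7 of 32 differed, 4 higher and 3 lower, where 23.8% of all genes were called (11.2% higher and 12.6% lower). The median log2 fold change over the 32 genes was 0.34 in XX and -0.13 in XY, beside 0.01 and 0.02 over all genes. The 2 libraries of each group were separate samples, and a p-value measures the spread between such samples, with 1 estimate of spread shared by all 6 groups. Of the gonadal somatic cells of the -KTS KO libraries, 98.4% to 99.55% lay in 4 clusters that held 0.0863% to 1.02% of those of the WT libraries, and 0 clusters were filled by all WT and -KTS KO libraries. The comparisons with -KTS KO are therefore between cells of different clusters, and a change within like cells could not be measured. Ier5, Hspb1 and Klf2 fell in both sexes.

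Ier5, a regulator of heat shock factor 1, was at 30.1 and 35.3 CPM in XX WT and at 16.0 and 12.2 CPM in XX -KTS KO. In XY it was at 66.4 and 53.2 CPM in WT and at 17.1 and 16.4 CPM in -KTS KO, so that in both sexes no -KTS KO library reached its WT group. The log2 fold changes were -1.15 ± 0.19 (SE, adjusted p = 0.003985, edgeR) in XX and -1.88 ± 0.20 (adjusted p = 0.00022) in XY. Hspb1, a small heat shock protein, was at 139 and 124 CPM in XX WT and at 38.2 and 41.3 CPM in XX -KTS KO. In XY its levels were 101 and 96.9 CPM for WT and 46.0 and 28.4 CPM for -KTS KO. The log2 fold changes of Hspb1 were -1.66 ± 0.22 (adjusted p = 0.00106) and -1.44 ± 0.21 (adjusted p = 0.00135, edgeR). Both genes stayed past the threshold in both sexes when each of the 12 libraries was left out in turn.

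Klf2 fell as well, from 19.7 and 24.8 CPM in XX WT to 5.47 and 6.10 CPM in XX -KTS KO, and from 13.6 and 10.4 CPM in XY WT to 5.80 and 3.62 CPM in XY -KTS KO. The log2 changes were -1.88 ± 0.45 (SE, adjusted p = 0.0191, edgeR) and -1.39 ± 0.44 (adjusted p = 0.0458). Klf2 stayed past the threshold in 8 of 12 fits that each left out 1 library in XX and in 2 of 12 in XY. It is the gene that was much higher in germ and endothelial cells, and its direction turned when all kept cells were summed (log2 fold change 0.0252 in XX and 0.0658 in XY). The part of these cells in that turn was not tested. Klf10 fell in XX alone among the calls, from 4.98 and 5.29 CPM to 2.18 and 3.10 CPM (log2 fold change -0.90 ± 0.26, adjusted p = 0.0428, edgeR). It passed in 4 of 12 fits with 1 library left out, and the difference from XY did not pass the test. Hspa1b was the other gene lower in XX -KTS KO, at 3.99 and 5.08 CPM in XX WT and 2.23 and 1.87 CPM in XX -KTS KO (log2 fold change -1.08 ± 0.26, SE, adjusted p = 0.0205, edgeR, past the threshold in 8 of 12 fits).

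Gadd45b, Btg1 and Socs3 went the other way. Gadd45b was at 22.8 and 17.9 CPM in XX WT and 38.5 and 63.1 CPM in XX -KTS KO, and at 23.98 and 15.8 CPM in XY WT and 47.1 and 45.1 CPM in XY -KTS KO. Its log2 fold changes were 1.37 ± 0.33 (SE, adjusted p = 0.0213, edgeR) and 1.16 ± 0.33 (adjusted p = 0.0304). Btg1 rose from 61.5 and 64.2 CPM to 90.8 and 89.8 CPM in XX and from 56.8 and 67.4 CPM to 87.7 and 110 CPM in XY (adjusted p = 0.0195 and 0.00944, edgeR). Socs3 passed the test in XX, at 8.98 and 8.82 CPM in WT and 19.3 and 19.8 CPM in -KTS KO (log2 fold change 1.201 ± 0.33, adjusted p = 0.0333, edgeR), and Jund in XY, at 458 and 460 CPM in WT and 703 and 629 CPM in -KTS KO (0.50 ± 0.15, adjusted p = 0.0360). With 1 library left out at a time, Jund passed in 4 of 12 fits, Socs3 in 8, Gadd45b in 9 in each sex, and Btg1 in 8 (XX) and 10 (XY). Fos and Egr1 did not pass it in either sex. Without XY +KTS KO replicate 1, which is in none of these groups but enters the shared estimate of spread, the counts of genes called were 17 in XX (beside 19.9% of all genes in that fit) and 13 in XY (beside 28.0%), and the SE of Klf2 in XX, for example, was 0.25.

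**Figure D4:**
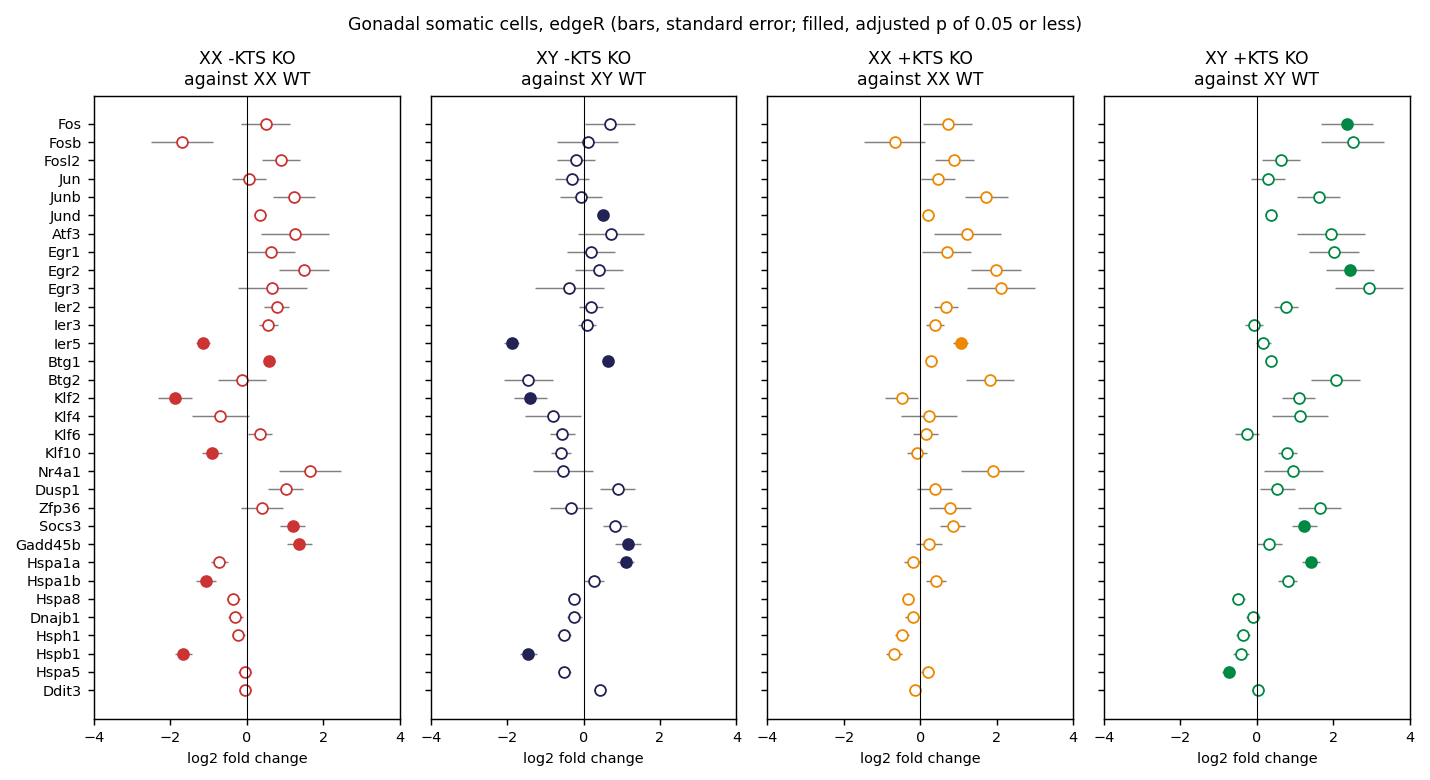
Log2 fold change with its standard error for each of the 32 genes in gonadal somatic cells, in 4 panels for XX and XY -KTS KO and XX and XY +KTS KO, each against WT of the same sex (edgeR); filled points have an adjusted p under 0.05. The panels hold 8, 7, 1 and 5 filled points, Ier5 and Hspb1 are filled on the left of 0 in both -KTS KO panels, and the error bars of Fos and Egr1 are wide in XY +KTS KO.

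In XX +KTS KO, 1 of the 32 genes differed from XX WT, where 5.19% of all genes were called (2.41% higher and 2.78% lower, edgeR). This was Ier5, at 30.1 and 35.3 CPM in WT and 70.8 and 61.0 CPM in +KTS KO (log2 fold change 1.06 ± 0.19, SE, adjusted p = 0.0150), which passed in 8 of 12 fits with 1 library left out. Without XY +KTS KO replicate 1, which enters this fit by its spread alone, 7 of the 32 genes passed, beside 7.4% of all genes: Btg2 (log2 fold change 1.83 ± 0.27, adjusted p = 0.00556), Junb (1.74 ± 0.27, adjusted p = 0.00749), Ier5, Fosl2, Egr2, Socs3 and Nr4a1, all higher in XX +KTS KO. Junb, for example, was at 26.4 and 17.4 CPM in XX WT and at 78.4 and 63.0 CPM in XX +KTS KO. The median log2 fold change over the 24 immediate early genes was 0.68 in XX +KTS KO, with 21 of 24 above 0, beside a median of 0 over all genes. The median was 0.57 in XX -KTS KO (18 of 24 above 0) and 0.63 in XY WT (19 of 24), and these comparisons share the XX WT libraries. In XY it was 0.004 for -KTS KO (12 of 24) and 1.02 for +KTS KO (22 of 24), beside 0.02 and 0.05 over all genes. The value for XY +KTS KO includes replicate 1 and is not given without it. The 24 genes summed to 4370 and 1600 CPM in XY +KTS KO and to 1605 and 1314 CPM in XY WT, so replicate 2 did not lie above XY WT. The share of all genes above 0 is not given beside these counts.

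In XY +KTS KO, 5 of 32 genes differed from XY WT, 4 higher and 1 lower, where 12.9% of all genes were called (6.27% higher and 6.58% lower). Fos was among them (log2 fold change 2.35 ± 0.68, SE, adjusted p = 0.0483, edgeR), with Egr2 (2.44 ± 0.64, adjusted p = 0.0352), Socs3 (1.24 ± 0.33, adjusted p = 0.0360), Hspa1a and Hspa5. The calls of Fos, Egr2, Socs3 and Hspa5 were lost without XY +KTS KO replicate 1, and then Hspa1a (1.202 ± 0.24, adjusted p = 0.0179), Klf6 (-0.98 ± 0.21) and Hsph1 (-0.65 ± 0.17) were the 3 genes that passed, beside 8.97% of all genes. With replicate 1 or replicate 2 left out, XY +KTS KO rested on 1 library assumed to vary like the others. The calls of such a fit therefore measure no spread within that group. Fos stayed past the threshold in 1 of 12 fits that each left out 1 library. In the 3 clusters of somatic cells that all 8 WT and +KTS KO libraries filled (clusters 4, 6 and 9, 11970 cells), 0 of the 32 genes passed in XY or in XX. At the same FDR, 3.03% and 1.5% of all genes were called. At an unadjusted p under 0.05 (edgeR) the 32 genes gave 17 and 8, and the share of all genes at that looser threshold is not given. Clusters 6 and 9 were led by genes of mitosis and by histone genes, so they may not be 1 type of cell each. In the 3 clusters the log2 fold change of Fos in XY was 2.20 ± 0.69 (adjusted p = 0.123, edgeR). There Ier5 in XX had a log2 fold change of 0.58 ± 0.17 (adjusted p = 0.174) and Hspa1a in XY one of 1.18 ± 0.30 (adjusted p = 0.0741, edgeR). The XX and XY comparisons of -KTS KO and +KTS KO share their WT libraries, so calls of the same gene in them are not independent.

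Hspa1a, the stress-inducible Hsp70, was low in every library and lowest in XY WT. It was at 4.004 and 6.15 CPM in XX WT and at 1.36 and 1.41 CPM in XY WT. In -KTS KO it was at 2.85 and 3.02 CPM in XX and 3.01 and 3.06 CPM in XY, and in +KTS KO at 4.03 and 4.58 CPM in XX and 4.77 and 3.16 CPM in XY. The XY WT libraries were thus the lowest of the 12, and in both knockouts the XX and XY libraries overlapped. Against XX WT, XY WT was lower with a log2 fold change of -1.80 ± 0.24 (SE, adjusted p = 0.00162, edgeR), and against XY WT both knockouts were higher, by 1.097 ± 0.23 (adjusted p = 0.00835) for -KTS KO and by 1.42 ± 0.23 (adjusted p = 0.005405) for +KTS KO. These 3 calls stayed when each of the 12 libraries was left out in turn.

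The effect of each knockout on Hspa1a differed between the sexes in the test of the difference itself, with 1 of 32 genes called in each such test (3.07% of 17069 autosomal genes called for -KTS KO, 1.28% with the higher effect in XY, and 3.97% for +KTS KO, 1.88% with the higher effect in XY). The difference, XY minus XX, was 1.82 ± 0.33 (SE, adjusted p = 0.0211, edgeR) for -KTS KO and 1.61 ± 0.32 (adjusted p = 0.0269) for +KTS KO on the log2 scale. Without XY +KTS KO replicate 1 they were 1.81 (adjusted p = 0.0115) and 1.39 (adjusted p = 0.0475). With 1 library left out at a time the calls stayed in 6 of 12 fits for -KTS KO and in 8 of 12 for +KTS KO. Neither passed with all kept cells summed, and in the shared clusters the difference for +KTS KO was 1.34 ± 0.41 (adjusted p = 0.29, edgeR). Both rest on the same low WT values in XY. Bag3, a co-chaperone of Hsp70, is named because it alone was called of 25 other chaperones and heat shock factors. This was 4% in each of the 2 tests of the difference, about the 3.07% and 3.97% of all genes. Its order was like that of Hspa1a in WT and +KTS KO. Bag3 was at 24.7 and 25.7 CPM (XX WT), 7.77 and 11.6 CPM (XY WT), 9.41 and 8.08 CPM (XX -KTS KO), 8.36 and 10.97 CPM (XY -KTS KO), 21.7 and 19.3 CPM (XX +KTS KO), and 28.8 and 17.0 CPM (XY +KTS KO). It differed from Hspa1a in -KTS KO, where both sexes lay at the level of XY WT. Its difference of effects was 1.43 ± 0.32 (adjusted p = 0.0450, edgeR) for -KTS KO and 1.40 ± 0.32 (adjusted p = 0.0409) for +KTS KO, and the latter did not pass without XY +KTS KO replicate 1 (1.07 ± 0.29, adjusted p = 0.0887).

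**Figure D5:**
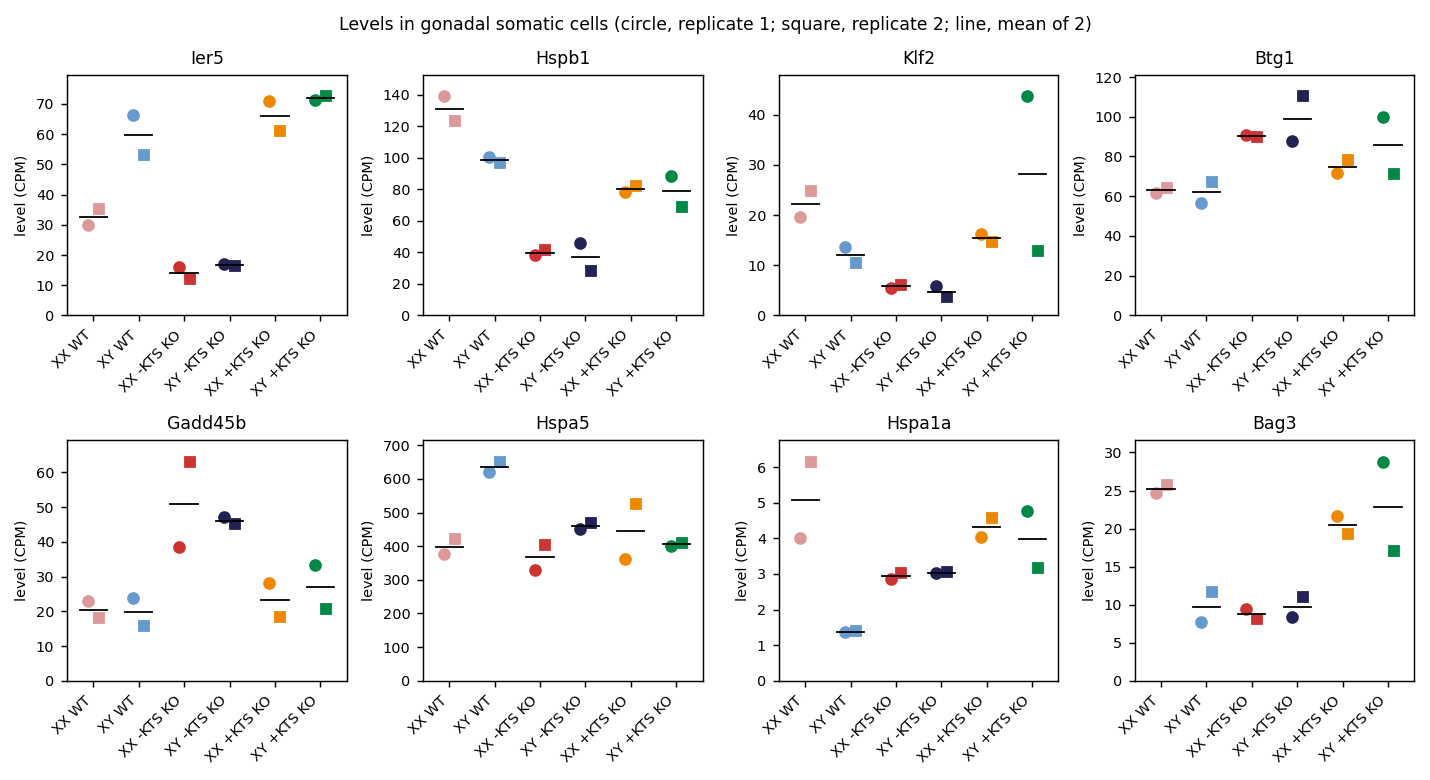
Level (CPM) in gonadal somatic cells of Ier5, Hspb1, Klf2, Btg1, Gadd45b, Hspa5, Hspa1a and Bag3 by group, with a circle for replicate 1, a square for replicate 2 and a line for their mean. Both -KTS KO groups lie below WT for Ier5 and Hspb1, and XY WT lies apart from the other 5 groups as the lowest for Hspa1a (1.36 and 1.41 CPM) and the highest for Hspa5 (620 and 651 CPM).

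Between XY WT and XX WT, 5 of 32 genes differed, 3 higher and 2 lower in XY, where 13.4% of 17069 autosomal genes were called (7.0% higher and 6.39% lower). Ier5 (log2 fold change 0.96 ± 0.19, SE, adjusted p = 0.0106, edgeR), Hspa5 (0.75 ± 0.17, adjusted p = 0.0180) and Ier3 (0.91 ± 0.24, adjusted p = 0.0349) were higher in XY, and Hspa1a and Hspa1b lower. The WT sexes lay largely in different clusters: cluster 3 held 43.8% and 40.97% of the XX WT somatic cells and 0.298% and 1.68% of those of XY WT, and cluster 12 held 25.8% and 25.3% of those of XY WT and 0% of XX WT. In the 3 shared clusters, where 1.7% of all genes were called, Ier5 and Hspa1a passed, and Hspa5 (0.45, adjusted p = 0.322), Ier3 (1.06, adjusted p = 0.144) and Hspa1b (-0.73, adjusted p = 0.378, edgeR) did not. With 1 library left out at a time Ier5 passed in 9 of 12 fits, Hspa5 and Hspa1b in 8 and Ier3 in 7. The near-identical paralog Hspa1b was at 2.37 and 1.93 CPM in XY WT (log2 fold change against XX WT -0.99 ± 0.26, adjusted p = 0.0335, edgeR). Its knockout levels in XY were 2.33 and 3.03 CPM for -KTS KO and 4.61 and 3.48 CPM for +KTS KO. The XX +KTS KO libraries had 4.62 and 7.16 CPM, and none of these groups passed the test against WT. Hspa5, the main chaperone of the ER, was at 376 and 420 CPM in XX WT and at 620 and 651 CPM in XY WT, the highest of the 12. In XY it was at 452 and 469 CPM in -KTS KO, which did not pass the test, and at 402 and 409 CPM in +KTS KO (log2 fold change -0.74 ± 0.17, adjusted p = 0.0219, edgeR). Without replicate 1 the change was -0.63 ± 0.20 (adjusted p = 0.0869, edgeR) and did not pass. Ddit3, a transcription factor of prolonged ER stress, lay between 10.5 and 17.4 CPM in all 12 libraries and was not called in any comparison. A second identifier annotated to Ddit3 is kept apart from it here.

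Other genes of the same pathways were taken from 4 lists, and their calls are set beside the share of all genes called in the same comparison. Of 22 other ER stress genes, 9 were higher in XY WT than in XX WT and 0 lower (median log2 fold change 0.65), or 40.9% called beside 13.4% of all genes. In XY +KTS KO against XY WT 0 were higher and 8 lower (median -0.62), or 36.4% beside 12.9%, and without XY +KTS KO replicate 1 the 8 were 3. In XY -KTS KO 1 was higher and 8 lower (median -0.51), or 40.9% beside 23.8%. In XX the counts were 0 higher and 1 lower for -KTS KO (4.55% beside 16.3% of all genes) and 1 higher and 0 lower for +KTS KO (4.55% beside 5.19%). Dnajc3, an ER co-chaperone of Hspa5, was at 46.5 and 49.3 CPM in XX WT and 77.7 and 82.6 CPM in XY WT, and at 38.4 to 58.0 CPM in all knockout libraries. Of 17 genes of the MAP kinase and SRF input and its feedback, 7 of 16 tested were higher in XY WT than in XX WT and 0 lower, and in XY +KTS KO 0 were higher and 4 lower, or 6 lower without replicate 1. These were 43.75% called beside 13.4% of all genes and 23.5% beside 12.9%. The list had 3 higher and 1 lower in XX -KTS KO (23.5% beside 16.3%) and 0 higher and 2 lower in XY -KTS KO (11.8% beside 23.8%). Without XY +KTS KO replicate 1 it had 3 higher and 3 lower of 17 (XX) and 0 higher and 7 lower of 17 (XY), beside 19.9% and 28.0% of all genes. It had no call in XX +KTS KO, where 5.19% of all genes were called (4 at an unadjusted p under 0.05, edgeR). Dusp4, a nuclear phosphatase of ERK, was at 2.58 and 3.13 CPM (XX WT), 14.6 and 17.8 CPM (XY WT), and 3.70 and 1.505 CPM (XY +KTS KO). Spry4, another inhibitor of the pathway, was at 10.7 and 2.03 CPM in XY +KTS KO and at 13.6 and 13.5 CPM in XY WT.

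Of 35 tested of 36 other immediate early genes, 3 were higher and 2 lower in XX -KTS KO, and 2 were higher and 5 lower in XY -KTS KO. These were 14.3% and 20% of the list, beside 16.3% and 23.8% of all genes. Without XY +KTS KO replicate 1 the counts were 8 higher and 3 lower (XX) and 4 higher and 10 lower (XY), beside 19.9% and 28.0% of all genes. For +KTS KO the counts were 2 higher and 0 lower (XX) and 3 higher and 2 lower (XY), and 7 were higher and 2 lower in XY WT than in XX WT (5.71%, 14.3% and 25.7% called, beside 5.19%, 12.9% and 13.4% of all genes). Without XY +KTS KO replicate 1, 2 were higher and 5 lower in XY +KTS KO. Gem, a small GTPase, was among those lower in XY -KTS KO, at 36.1 and 16.4 CPM in XY WT and at 4.65 and 4.15 CPM in XY -KTS KO (log2 fold change -2.64 ± 0.52, SE, adjusted p = 0.00575, edgeR). Of 25 other chaperones, -KTS KO had 3 higher and 2 lower (XX) and 4 higher and 5 lower (XY), and +KTS KO had 0 of either (XX, 3 at an unadjusted p under 0.05, edgeR, where 5.19% of all genes were called) and 3 higher and 3 lower (XY, 24% beside 12.9% of all genes, and 1 higher and 2 lower without replicate 1). The shares for -KTS KO were 20% beside 16.3% (XX) and 36% beside 23.8% (XY). Between the WT sexes, 0 were higher and 1 lower in XY (4% beside 13.4% of all genes). Hspa2, a relative of Hspa8 and Hspa1a, rose in -KTS KO while Hspa8 did not pass the test. It was at 17.7 and 18.4 CPM in XX WT and 55.8 and 73.0 CPM in XX -KTS KO, and at 19.4 and 20.7 CPM in XY WT and 84.6 and 81.7 CPM in XY -KTS KO (log2 fold changes 1.90 ± 0.15 and 2.02 ± 0.15, adjusted p = 0.000152 and 3.49e-05, edgeR).

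In germ cells 0 of 29 genes tested passed in any of the 4 comparisons of knockout with WT (edgeR), where 0.0799% of all 13773 genes were called in XX -KTS KO, 0.0799% in XX +KTS KO and 0% in both XY comparisons. At an unadjusted p under 0.05 the counts were 2 (XX) and 5 (XY) for -KTS KO and 2 (XX) and 3 (XY) for +KTS KO, and DESeq2 called 1, Btg2 in XX +KTS KO. The shares of all genes given here are those of edgeR after adjustment. For counts by DESeq2 or at an unadjusted p, in germ and in endothelial cells, no share of all genes is given. In endothelial cells 28 genes were tested in 11 libraries, XX -KTS KO replicate 1 being left out with 48 cells, so that its group rested on 1 library assumed to vary like the others. None passed in XX -KTS KO (0.445% of all 11246 genes) or XX +KTS KO (0.249%), with 8 and 7 at an unadjusted p under 0.05 and 2 and 0 called by DESeq2. In XY -KTS KO 3 passed (6.69% of all genes, 3.22% higher and 3.47% lower): Dusp1 rose from 41.9 and 52.1 CPM to 85.5 and 86.4 CPM (log2 fold change 0.96 ± 0.20, SE, adjusted p = 0.0102, edgeR), Jund rose (0.72 ± 0.18, adjusted p = 0.0336) and Ier5 fell (-0.83 ± 0.22, adjusted p = 0.0407). With 1 library left out at a time, Dusp1 passed in 10 of 11 fits, Ier5 in 4 and Jund in 3. In XY +KTS KO 1 passed (3.09% of all genes, 1.95% lower), which was Ier3, at 91.5 and 83.8 CPM in XY WT and at 36.8 and 15.6 CPM in XY +KTS KO (-1.90 ± 0.33, adjusted p = 0.00755, edgeR). Without XY +KTS KO replicate 1, which leaves 1 library in that group, the log2 fold change of Ier3 was -2.44, that of Hsph1 -1.58 and that of Dusp1 0.84.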

How the data were processed

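Libraries were made with a droplet 3' kit. The authors deposited raw UMI counts per gene and barcode, made with Cell Ranger 6.0 on mm10 per the submitters' notes, without normalization. Barcodes under 1000 genes or over 10% mitochondrial UMIs were dropped (83513 stayed), and the highest Scrublet scores, 0.8% per 1000 barcodes of a library, were removed, since the threshold Scrublet chose marked no more than 3 barcodes in 6 libraries. Clustering followed the steps of the study's methods (sctransform 0.4.2, Seurat 5.3.0, 3000 variable genes, 50 components, 20 neighbours, resolution 0.8), with 25 of the 32 genes that were variable left out. Clusters were classed by markers (34 clusters). The study used an earlier Seurat version and DoubletFinder, so these clusters are not the study's.

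UMIs were summed per library and class. Sums were tested with edgeR 4.0.16 (TMM, filterByExpr, quasi-likelihood, Benjamini-Hochberg, FDR 0.05) in 1 fit of 6 groups, on classes with at least 50 cells in a library. Comparisons between sexes used autosomal genes. Counts at an unadjusted p under 0.05 are given where no gene of a set passed. They are not to be compared with shares of all genes at FDR 0.05, and the shares of all genes at the unadjusted threshold are not given. The fit was tested on simulated data. Alternatives were DESeq2 1.42.0, RLE normalization, no filter, a replicate block, each library left out, log-normalized clustering, all kept cells and, added after the data were seen, shared clusters only and the somatic class without clusters 26 and 33. Other versions were R 4.3.3, Python 3.11.15 and scanpy 1.11.5.

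The 32 genes, the 4 other lists and the markers were chosen with earlier results of these data known. Named outside the 32 were the label checks, markers, and at most 3 genes per list and comparison with the largest change past the threshold, with Spry4 in XY +KTS KO, and the leading genes of cluster 11, chosen after their values were seen.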

Additional observations from a re-analysis of the deposited data

Results flagged for a closer look

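The effect of each knockout on Hspa1a in gonadal somatic cells differed between XX and XY embryos in the test of the difference itself (edgeR interaction term). The log2 fold change in XY minus that in XX was 1.82 (adjusted p = 0.0211) for -KTS KO and 1.61 (adjusted p = 0.0269) for +KTS KO. In each test 1 of 32 genes was called, about the share of all genes called (3.07% for -KTS KO and 3.97% for +KTS KO). Both tests share the XX WT and XY WT libraries, so they are not independent. When each of the 12 libraries was left out in turn, the difference stayed past the threshold in 6 of 12 fits for -KTS KO and in 8 of 12 for +KTS KO. Neither passed with all kept cells summed, and in the shared clusters the +KTS KO difference was 1.34 (adjusted p = 0.29, edgeR). Hspa1a was low, with a mean of 3.45 CPM over the 12 libraries. The split of reads between it and its near-identical copy Hspa1b is uncertain.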

How the results depend on the processing

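Of 608 alternative values for the 32 gene results called above, 448 kept their direction and side of the threshold, 158 kept the direction without passing, and 2 reversed. These were Klf2 with all kept cells summed (log2 fold change 0.0252 for XX and 0.0658 for XY -KTS KO), and the cause of the reversal was not tested. Counts of called genes moved by over 1.5 times as follows, and the cause was not tested. For most of these alternatives the share of all genes called is not set beside the counts. Those counts therefore do not compare the 32 genes with all genes. With DESeq2, gonadal somatic counts were 3 in XX +KTS KO, 13 in XY +KTS KO and 8 between the WT sexes, 2 and 3 for the -KTS and +KTS effects by sex, 2 in endothelial XX -KTS KO and 1 in germ XX +KTS KO. With no filter on low counts they were 4, 13, 9, 2 and 3 for the same somatic comparisons, 3, 6, 11 and 5 in endothelial cells (XX +KTS, XX -KTS, XY +KTS, XY -KTS KO), and 1, 1, 1 and 3 in germ cells in that order. With all kept cells they were 2 (XX) and 4 (XY) for -KTS KO, 3 between the WT sexes and 0 for both effects by sex (3 and 5 at an unadjusted p under 0.05 for -KTS and +KTS), and the immediate early ratio was 2.65. With shared clusters only, they were 0 in XX and XY +KTS KO, 0 for the +KTS effect by sex (8, 17 and 2 at an unadjusted p under 0.05) and 2 between the WT sexes. Without thinning, the Fos share was 80.7%. RLE normalization called 3 genes higher of 7 in XY -KTS KO, against 4 of 7. With 1 library left out at a time, gonadal somatic counts ran from 2 to 17 in XX -KTS KO, 3 to 13 in XY -KTS KO, 0 to 7 in XX +KTS KO, 1 to 20 in XY +KTS KO and 1 to 12 between the WT sexes, with 0 to 1 and 0 to 7 for the -KTS and +KTS effects by sex. Endothelial counts ran from 0 to 1, 0 to 4, 0 to 2 and 0 to 5 in the same order, and germ counts stayed at 0. The replicate block gave 7, 8, 1, 4 and 5 somatic calls and 1 for each effect by sex, where same-numbered libraries correlated at -0.22 to 0.17, so the numbers do not pair the samples. In endothelial XY -KTS KO the block called 2. With 2 libraries per group, and 266 immune cells in all, small differences could not be seen.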
